A study of Mus musculus with 6 samples.

Results

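The transcripts of 10 circadian clock genes were followed in tumor cells with reduced HIF-1α, out of 22880 genes in the deposited table. They comprise the period genes Per1, Per2 and Per3, the cryptochrome gene Cry1, the clock repressor gene Ciart, the basic helix-loop-helix repressor genes Bhlhe40 and Bhlhe41, the nuclear receptor gene Nr1d2, and the activator genes Clock and Arntl. The genes were picked by symbol with their values in these libraries already known. Their differences between the groups are therefore given as a description, and counts of members past a limit stand beside the share over all genes without being read as a test. MC-38 is a mouse colon adenocarcinoma line, here carrying green fluorescent protein. Both groups were transduced with the vector pLKO.1-puro, without prior passaging in vivo, either as a mock control (Mock) or with a knockdown of HIF-1α (HIF-1α-KD). The cells grew in the cecum wall of C57BL/6J mice, whose own cells keep HIF-1α, and were then sorted from the tumors as living cells positive for green fluorescent protein and negative for CD45 and CD31. Messenger RNA was sequenced from 3 Mock and 3 HIF-1α-KD libraries. The age of the mice, the number of tumors behind a library, the number of clones behind a line and the hour of tumor collection are not given in the sources used here.

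The mammalian clock is a loop of transcription. CLOCK and BMAL1, the product of Arntl, pair through their PAS domains and bind E-boxes in the promoters of the period and cryptochrome genes, of Nr1d2 and Ciart and of Bhlhe40 and Bhlhe41. The PER and CRY proteins and CIART then repress CLOCK and BMAL1, while the products of Bhlhe40 and Bhlhe41, also called DEC1 and DEC2, compete for the E-boxes themselves. Nr1d2 encodes REV-ERBβ, which represses Arntl from a site that ROR receptors use to activate it. HIF-1α belongs to the same bHLH-PAS family as CLOCK and BMAL1, its response element shares letters with the E-box, and Bhlhe40 and Bhlhe41 are known hypoxia-induced genes.

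The promoter windows of 8 of the 10 genes, from 250 bases before to 50 bases after a transcript start, were taken from RefSeq on GRCm38.p6. Per2 and Bhlhe40 had no entry in the set of windows used here. An E-box, CACGTG read on both strands, stood in 4 of the 12 windows of these 8 genes, 1 each of Ciart, Per1, Cry1 and Bhlhe41, against 7.15% of all 32851 windows. The Ciart window held 3 of them, starting at positions -116, -58 and -44 from the transcript start. The others held 1 each, at -166 in Per1, -60 in Cry1 and -153 in Bhlhe41. The 4 windows are printed with the E-boxes in capitals, because they are the members with an E-box in the window, the element through which the clock loop is described above. Their positions are chr3:95882179-95882478 for Ciart, chr11:69098699-69098998 for Per1, chr10:85185005-85185304 for Cry1 and chr6:145865371-145865670 for Bhlhe41. Per1 lies on the forward strand and the other 3 on the reverse strand, and each sequence reads 5′ to 3′ along its gene.
Ciart: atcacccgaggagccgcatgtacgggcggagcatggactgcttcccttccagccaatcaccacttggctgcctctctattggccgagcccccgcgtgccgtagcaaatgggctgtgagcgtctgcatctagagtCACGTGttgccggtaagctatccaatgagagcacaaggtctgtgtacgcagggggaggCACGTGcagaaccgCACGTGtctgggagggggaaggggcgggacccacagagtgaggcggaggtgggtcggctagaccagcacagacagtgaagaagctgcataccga
Per1: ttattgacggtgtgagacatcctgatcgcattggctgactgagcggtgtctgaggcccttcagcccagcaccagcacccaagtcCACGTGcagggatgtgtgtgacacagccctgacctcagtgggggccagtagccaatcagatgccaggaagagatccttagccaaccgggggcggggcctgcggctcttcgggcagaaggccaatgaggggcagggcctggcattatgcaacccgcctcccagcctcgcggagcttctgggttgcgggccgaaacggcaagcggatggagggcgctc
Cry1: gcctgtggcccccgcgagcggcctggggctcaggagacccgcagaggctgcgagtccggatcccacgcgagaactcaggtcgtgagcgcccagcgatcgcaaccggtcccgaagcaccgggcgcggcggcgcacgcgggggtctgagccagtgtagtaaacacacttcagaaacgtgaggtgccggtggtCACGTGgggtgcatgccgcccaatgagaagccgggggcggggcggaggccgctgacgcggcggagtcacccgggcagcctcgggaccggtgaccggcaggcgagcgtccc
Bhlhe41: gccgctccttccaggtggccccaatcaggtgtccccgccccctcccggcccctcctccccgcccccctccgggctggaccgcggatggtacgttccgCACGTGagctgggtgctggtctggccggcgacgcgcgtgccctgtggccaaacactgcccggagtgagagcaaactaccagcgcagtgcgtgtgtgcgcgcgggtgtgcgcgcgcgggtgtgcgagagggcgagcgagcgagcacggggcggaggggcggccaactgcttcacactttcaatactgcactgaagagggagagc

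Nr1d2 is shown beside them (chr14:18239057-18239356, reverse strand) as the receptor gene among the members, without an E-box in its window. Its capitals mark the element AGGTCA, to which ROR and REV-ERB receptors bind, at position -77.
Nr1d2: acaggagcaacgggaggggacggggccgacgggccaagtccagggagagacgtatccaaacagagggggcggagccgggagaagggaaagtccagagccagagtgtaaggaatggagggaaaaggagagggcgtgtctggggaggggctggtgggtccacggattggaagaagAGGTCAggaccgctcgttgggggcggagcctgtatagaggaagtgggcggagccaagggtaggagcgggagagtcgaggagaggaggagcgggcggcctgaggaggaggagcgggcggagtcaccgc
This element, searched on both strands, was also found in 1 window each of Per1, Clock and Arntl, so in 4 of the 12, and in 16.3% of all windows. The core of the hypoxia response element, ACGTG or GCGTG on both strands, was found in 9 of the 12 windows, from all of the 8 genes except Arntl, and in 43.8% of all windows. Every CACGTG holds the core ACGTG on each strand, so the motifs overlap by construction. The D-box TTANGTAA occurred in 1 window, that of Per3, at positions -205 and -158, against 2.32% of all windows. The E-box variant CACGTT occurred in 1 window, of Cry1 (4.68% of all windows), and the CRE core TGACG in 3 windows, of Cry1 and Per1 (20.8% of all windows). A match of letters is no measurement of binding.

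**Figure D1:**
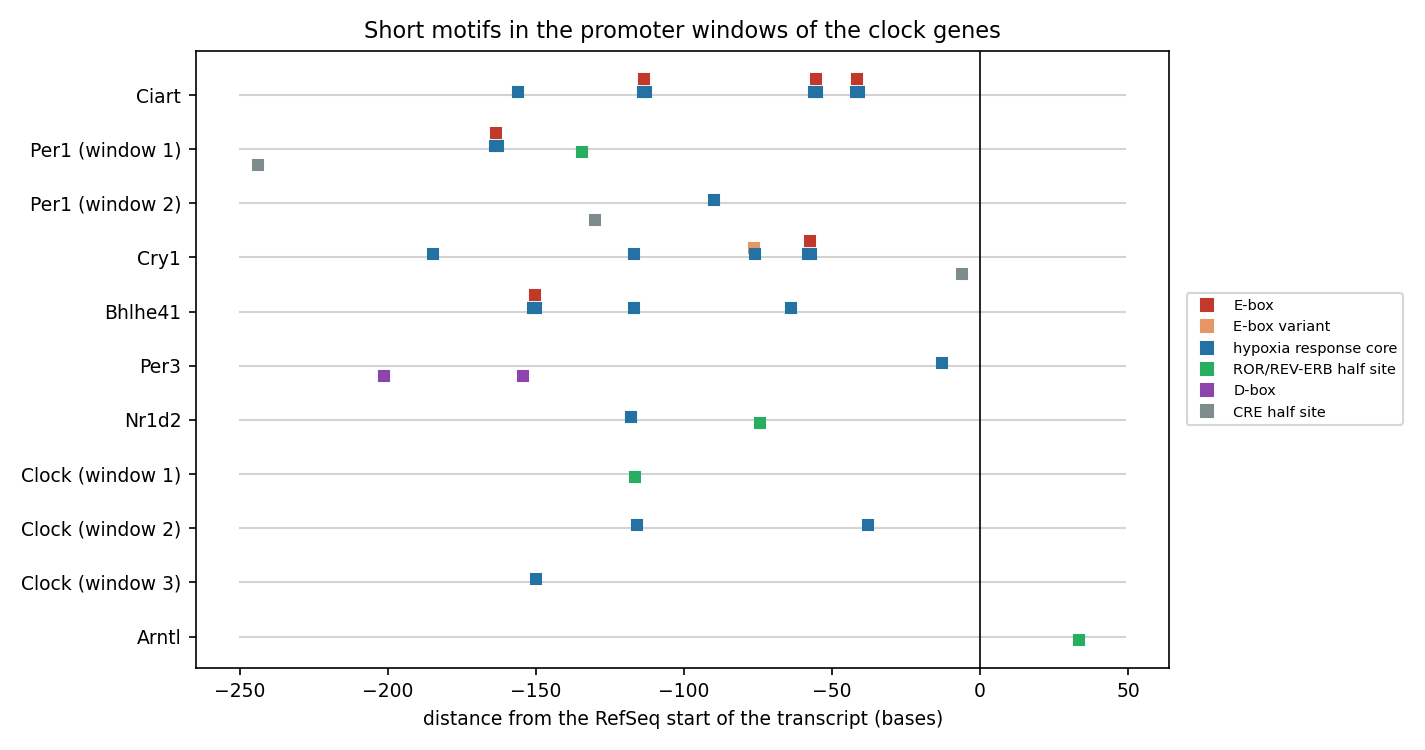
Motif matches in RefSeq promoter windows, by distance in bases from the transcript start (0, vertical line). Each row is a window with at least 1 match, numbered by coordinate where a gene has several; the first Arntl window had no match and is not drawn. Red squares are E-boxes, with 3 in Ciart and 1 each in Per1, Cry1 and Bhlhe41, and the other colors are the motifs of the legend.

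Between 19845776 and 30809226 reads per library fell on genes, and 12014 genes passed the filter on low counts, all 10 clock genes among them. Each value below is a normalized count, the reads of a gene divided by 1 factor per library. Hif1a itself had 6914, 5424 and 4945 normalized counts in Mock cells, against 697.3, 3142 and 1928 after the knockdown. The knockdown was thus deepest in HIF-1α-KD replicate 1. Among markers of other cells, the 7 leukocyte markers summed to between 3101 and 3349 normalized counts in Mock libraries and to 2111, 2310 and 10785 in HIF-1α-KD replicates 1 to 3, with Cd3e under 10 in each library. The 5 endothelial markers summed to 511 to 623 in Mock and 322 to 482 in HIF-1α-KD libraries, mostly from Cdh5. The 6 epithelial markers were low for a line from a carcinoma, 2 of them passing the filter on low counts, with sums of 64.1 to 117 in 5 libraries and 517 in Mock replicate 3. The 5 fibroblast and mural markers summed to 30815 to 49300 in Mock and 23025 to 36964 in HIF-1α-KD libraries, mostly from Dcn. Whether the MC-38 cells themselves make the fibroblast and mural transcripts, which were high in every library, was not tested. The part of other cells in the clock gene values was not tested either. The lowest and highest values with single libraries left out are given beside the members. They do not address a signal shared by all libraries. In sorted bulk cells, fewer cells with a transcript and less transcript per cell cannot be told apart.

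Per1, Ciart and Bhlhe40 had the lowest counts in HIF-1α-KD relative to Mock cells among the 10 genes. They encode repressors of the loop, but so do Per2, Per3, Cry1 and Bhlhe41. The groups overlapped for each of these, and Per3 pointed the other way (log2 fold change 0.54). Per1 was 3.32-fold, Ciart 3.13-fold and Bhlhe40 2.17-fold lower by the fit. In each of Per1, Ciart and Bhlhe40 every HIF-1α-KD library lay below every Mock library. Clock was the one member for which every HIF-1α-KD library lay above every Mock library, with a 1.49-fold higher level. The groups overlapped for the other 6 genes. Among all genes tested, 8.75% lay lower and 10.4% higher in HIF-1α-KD cells without overlap. With limits of 0.05 on the unadjusted limma p-value and 1.5 on the fold, 3 members were lower and 0 higher, against 3.46% and 4.02% of all genes. At an adjusted p-value under 0.05 in limma, 1 member (Per1) was lower, against 0.383% of all genes, and 0 were higher, against 0.00832%. With an unadjusted limma p-value alone, 4 of the 10 were under 0.05, against 12.7% of all genes. At an adjusted p-value under 0.05, edgeR had 1 member lower, against 0.391% of all genes, and DESeq2 had 3 lower, against 1.56%. Nothing is read from these counts, because the members were chosen on the same contrast. The median log2 fold change was -0.43 over the 10 members and 0.02 over all genes tested, with 6 members below and 4 above 0.

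**Figure D2:**
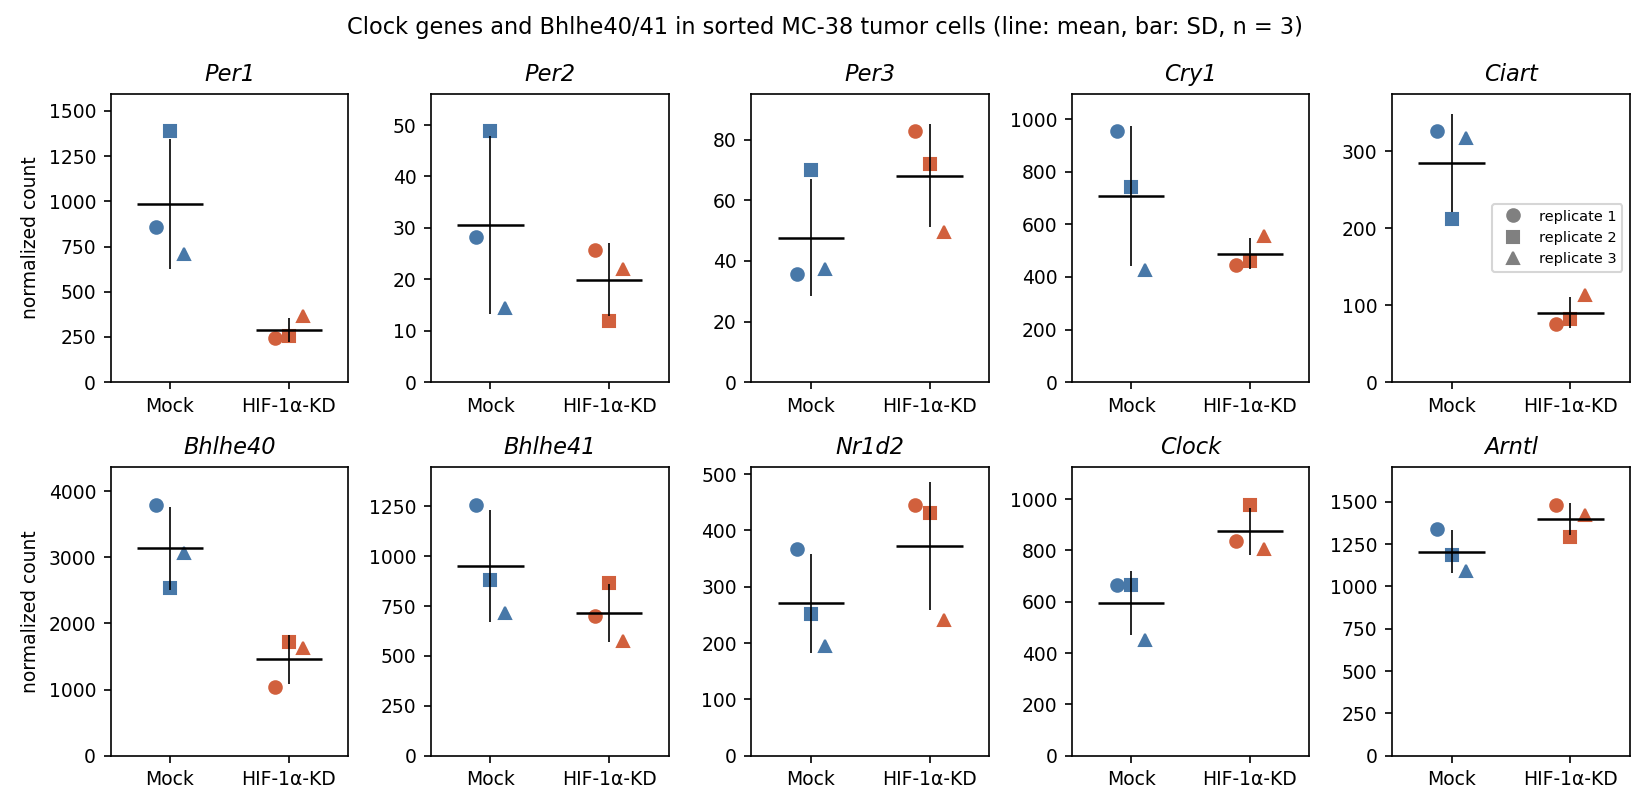
Normalized counts (vertical axes, from 0) of the 10 clock genes in each library, with the mean (line) and SD (bar, n = 3) of Mock (blue) and HIF-1α-KD (orange); symbols mark the replicate number. Per1, Ciart and Bhlhe40 separate downward and Clock separates upward, while the points of the other 6 genes overlap.

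Per1 encodes the period protein that also responds to acute signals within the hour. It lies on chromosome 11 (GRCm38, 69095217 to 69109960, forward strand). Its normalized counts were 859.3, 1388 and 707.9 in Mock cells, against 242.9, 257.8 and 365 after the knockdown. Mock replicate 2 was the highest, and even the lowest Mock library held 1.94 times the count of the highest HIF-1α-KD library. Means were 985 ± 357 (SD, n = 3) and 289 ± 66.6 (SD, n = 3), and the log2 fold change (log2FC) was -1.73 with a standard error (SE) of 0.28. With each library left out in turn it was between -1.94, without Mock replicate 3, and -1.46, without Mock replicate 2. Without HIF-1α-KD replicate 3, the library with the most leukocyte transcripts, it was -1.91.

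The other period genes were scarce. Per2 (chromosome 1, 91415982 to 91459324, reverse strand), the paralog most needed for rhythm in mice, had 28.31, 48.81 and 14.5 normalized counts in Mock cells, against 25.74, 11.99 and 21.95 after the knockdown. This corresponds to 10 to 51 reads per library. The log2 fold change was -0.50 with a standard error of 0.54, and the groups overlapped. Without Mock replicate 2, which held the highest count, it was -0.09, and without Mock replicate 3 it was -0.94. Per3 (chromosome 4, 151003652 to 151044665, reverse strand), an accessory period gene, had 35.7, 69.86 and 37.45 normalized counts in Mock cells, against 82.84, 71.94 and 49.67 after the knockdown. Its difference pointed the other way, with a log2 fold change of 0.54 and a standard error of 0.38. A single Mock library, replicate 2, overlapped the HIF-1α-KD range, and without it the log2 fold change was 0.85. The lowest value, without Mock replicate 1, was 0.37. Per3 lies within the locus of Camta1 on the same strand.

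With less Per1, the other period genes made up more of the period transcripts in HIF-1α-KD libraries, without a separation of their own counts. The mean Per2 count was in fact lower there, at 19.9 ± 7.10 normalized counts (SD, n = 3) against 30.5 ± 17.3 in Mock (SD, n = 3). Per1 supplied 93.3%, 92.4% and 93.7% of the summed Per1, Per2 and Per3 FPKM in the Mock libraries, where FPKM is the level per gene length and library depth. In the HIF-1α-KD libraries it supplied 71.2%, 77.9% and 84.6%. The share of Per3 was 3.21%, 3.85% and 4.11% in Mock, against 20.1%, 18.0% and 9.54% in knockdown libraries, so each HIF-1α-KD library had a higher Per3 share than each Mock library. The shares of Per2 separated narrowly, the highest Mock value being 3.72% and the lowest HIF-1α-KD value 4.15%, on few reads. The summed period FPKM was 8.52 to 18.0 in Mock and 3.97 to 5.24 in HIF-1α-KD libraries.

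Ciart, also called CHRONO, encodes a repressor that binds BMAL1. It lies on chromosome 3 (95878503 to 95882251, reverse strand) and carries the 3 E-boxes printed above. Normalized counts were 326.2, 211.5 and 317.7 in Mock cells, against 75.61, 81.54 and 113.2 after the knockdown, that is 68 to 265 reads. The lowest Mock library had 1.87 times the count of the highest HIF-1α-KD library, replicate 3. Means were 285 ± 63.9 (SD, n = 3) and 90.1 ± 20.2 (SD, n = 3), for a log2 fold change of -1.65 with a standard error of 0.27. Leaving out single libraries moved it between -1.85, without Mock replicate 2, and -1.53, without HIF-1α-KD replicate 1. It was -1.82 without HIF-1α-KD replicate 3. Ciart overlaps the antisense gene C920021L13Rik, and the strand setting of the counting is not given in the sources used here.

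Cry1 (chromosome 10, 85131700 to 85185064, reverse strand) encodes the cryptochrome that closes the late part of the loop. It had 954.1, 741.7 and 426.4 normalized counts in Mock cells, against 447.2, 460.4 and 556.8 after the knockdown. The Mock libraries spread more than the HIF-1α-KD libraries, and Mock replicate 3 lay below all of the latter. The log2 fold change of -0.46 (standard error 0.28) became -0.79 without Mock replicate 3, the library with the highest epithelial markers, and -0.21 without Mock replicate 1. Its paralog Cry2, not a member, showed log2FC -0.47 ± 0.18 SE (adjusted p = 0.354 by limma) without overlap of the groups. The ratio of Cry1 to Cry2 FPKM was 1.32, 1.152 and 0.765 in Mock, against 1.03, 1.04 and 1.11 in knockdown libraries.

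Bhlhe40 was the most abundant of the 10 transcripts in both groups. It lies on chromosome 6 (108660629 to 108666925, forward strand). Its normalized counts were 3797, 2539 and 3073 in Mock cells, against 1034, 1713 and 1629 after the knockdown. The lowest Mock library held 1.48 times the count of the highest HIF-1α-KD library. Means were 3136 ± 631 (SD, n = 3) and 1459 ± 370 (SD, n = 3), and the log2 fold change was -1.12 with a standard error of 0.23. It was -0.89 without HIF-1α-KD replicate 1 and -1.26 without Mock replicate 2. Without HIF-1α-KD replicate 3, which held the most leukocyte transcripts, it was -1.22. The start of the locus overlaps the antisense gene 0610040F04Rik.

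Bhlhe41, the close paralog on the same chromosome (145858243 to 145865558, reverse strand), differed less. It had 1259, 879.5 and 713.9 normalized counts in Mock cells, against 703, 866.9 and 574.1 after the knockdown. The ranges overlapped widely, and HIF-1α-KD replicate 2 was close to Mock replicate 2. The log2 fold change was -0.39 with a standard error of 0.24, and -0.17 without Mock replicate 1, which held the highest count. Without Mock replicate 3 it was -0.58. Gm43909 overlaps it on the opposite strand. The ratio of Bhlhe40 to Bhlhe41 FPKM was 7.86, 7.52 and 11.2 in Mock, against 3.83, 5.15 and 7.39 in knockdown libraries. Each HIF-1α-KD library thus had a lower ratio than each Mock library, although the nearest values, 7.39 and 7.52, were almost the same.

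Clock (chromosome 5, 76209868 to 76304792, reverse strand), the histone acetyltransferase subunit of the activator, was higher in HIF-1α-KD cells. Normalized counts were 666, 665.1 and 450.6 in Mock cells, against 837.3, 978.4 and 807.4 after the knockdown. The lowest HIF-1α-KD library had 1.21 times the count of the highest Mock library. The log2 fold change was 0.58 with a standard error of 0.20, which is just under the limit of 1.5-fold. It was between 0.39, without Mock replicate 3, and 0.67, without Mock replicate 1. Its partner Arntl (chromosome 7, 113207465 to 113314126, forward strand) had 1339, 1185 and 1090 normalized counts in Mock cells, against 1483, 1294 and 1420 after the knockdown. Arntl varied least of the 10 genes, and its log2 fold change of 0.22 (standard error 0.15) was accompanied by an overlap of Mock replicate 1 with the HIF-1α-KD range. It was between 0.15, without Mock replicate 3, and 0.30, without Mock replicate 1.

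Nr1d2 (chromosome 14, 18204054 to 18239127, reverse strand) encodes the repressor of Arntl. It had 366.9, 250.7 and 194.5 normalized counts in Mock cells, against 445.6, 430.5 and 240.3 after the knockdown. HIF-1α-KD replicate 3, the library with the highest leukocyte markers, lay within the Mock range, and the other HIF-1α-KD libraries lay above it. The log2 fold change was 0.45 with a standard error of 0.32, and 0.74 without HIF-1α-KD replicate 3. The value without Mock replicate 3 was 0.24. Its paralog Nr1d1, not a member, had 402.6, 279.4 and 723.6 normalized counts in Mock cells, against 616.9, 368.1 and 442.4 after the knockdown, log2FC 0.10 ± 0.35 SE. The direction of Nr1d1 turned with single libraries left out, from -0.22 without Mock replicate 2 to 0.47 without Mock replicate 3.

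Levels per length placed the activator Arntl above most of its repressors. In Mock libraries Bhlhe40 led with 94.5 ± 16.2 FPKM (SD, n = 3), a level above that of 89.5% of genes tested, followed by Arntl with 16.6 ± 1.69 FPKM (SD, n = 3). Ciart, Per1, Bhlhe41 and Cry1 followed with mean levels of 11.97, 11.43, 11.02 and 9.39 FPKM, and the ranges of neighbours in this order overlapped. Nr1d2 and Clock formed the next pair with 3.40 and 3.18 FPKM and overlapping ranges. Per3 and Per2 came last with 0.459 and 0.408 FPKM, again with overlapping ranges. In HIF-1α-KD libraries Bhlhe40 still led with 46.1 ± 12.6 FPKM (SD, n = 3), and Arntl was next with 20.01 ± 1.09 FPKM (SD, n = 3). Ciart and Per1 stood after Bhlhe41, Cry1, Nr1d2 and Clock there, with mean levels of 3.96 and 3.46 FPKM. The ranges of Clock and Ciart overlapped, and so did those of Ciart and Per1. The ratio of Arntl to Clock FPKM was 5.19, 4.59 and 6.24 in Mock, against 4.57, 3.41 and 4.53 in knockdown libraries.

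**Figure D3:**
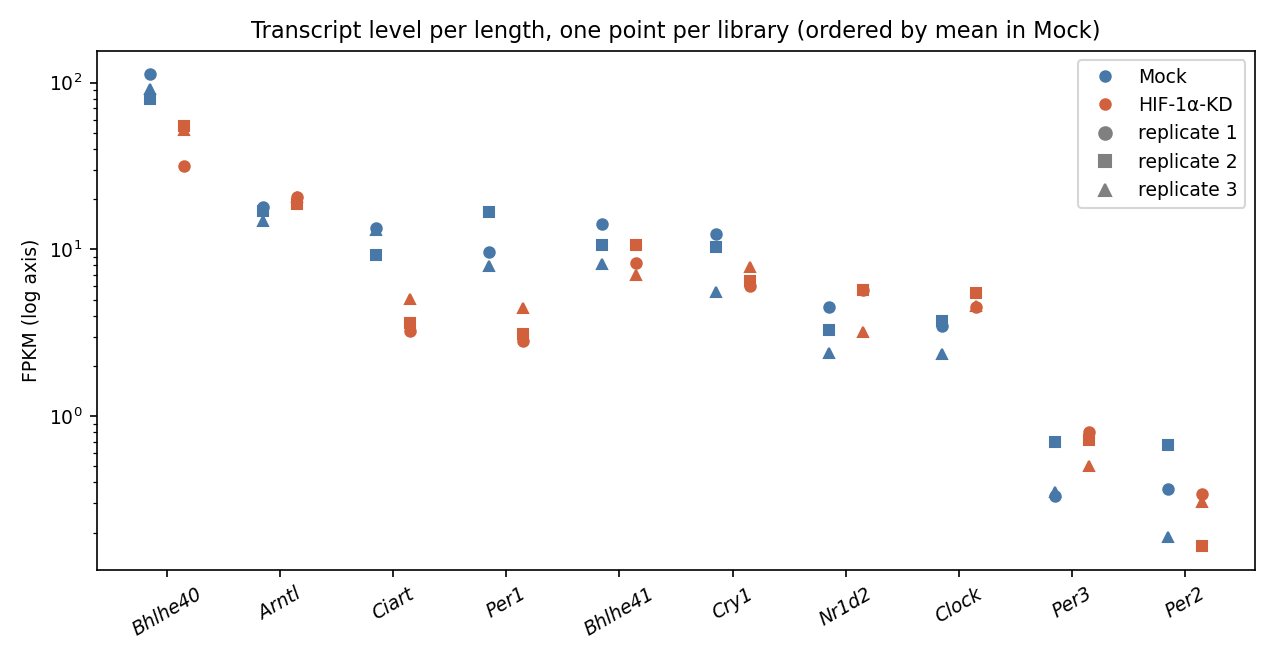
FPKM (vertical log axis) of the 10 clock genes in each Mock (blue) and HIF-1α-KD (orange) library, ordered by the Mock mean; symbols mark the replicate number. Bhlhe40 lies highest in both groups, and Ciart and Per1 overlap with Bhlhe41 and Cry1 in Mock but lie below both in HIF-1α-KD libraries.

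The members were also compared for how they varied between libraries of the same group, which the contrast of the groups does not use. Each group mean was subtracted from the log2 normalized counts, and Pearson's r was taken over the 6 libraries as a description, since genes of a library share its depth and cell make-up. Of the 45 pairs of members, 2 had an r of at least 0.9 in size, which is 4.44% of them against 5.04% of all pairs of genes tested, so the count is near the background. Nr1d2 and Bhlhe41 varied together (r = 0.91), and 4.51% of genes tested were as strongly related to Nr1d2. Ciart and Per3 varied in opposite directions (r = -0.99), on as few as 29 reads of Per3, and 0.0499% of genes tested were as strongly related to Per3. Per1 and Ciart, the members with the largest differences, were not alike within the groups (r = -0.25), nor were Per1 and Bhlhe40 (r = -0.10), whereas Ciart and Bhlhe40 had an r of 0.69. Clock and Arntl had an r of 0.41.

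Over the 6 libraries without subtraction of group means, the genes most like Bhlhe40 were Plod2 (r = 0.99), Pter (r = 0.99) and S100a11 (r = 0.99). Plod2 encodes a collagen lysyl hydroxylase and had 14360, 10730 and 11590 normalized counts in Mock cells, against 6156, 8401 and 7404 after the knockdown, a log2 fold change of -0.74. Pter and S100a11 had log2 fold changes of -0.52 and -0.28. The genes most like Bhlhe41 were Serhl, Csgalnact2 and Tfdp2 (each r = 0.99), with log2 fold changes between -0.30 and -0.27. Those most like Per2 were Ckap2, Pitpnc1 and Jade2 (each r = 0.96), on only 10 to 51 reads of Per2 per library.

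Of 31 further clock genes that are not members, 26 had enough reads to be tested, and 3 were lower and 3 higher in HIF-1α-KD cells by the limits on unadjusted p and fold. The remaining 5 had between 0 and 16 reads per library. At an adjusted p-value under 0.05, limma called 0 of the 26, edgeR 0 and DESeq2 2 (Hlf and Nampt), and 8 had an unadjusted p-value under 0.05 in limma, against 12.7% of all genes. Over all genes DESeq2 had 1.56% lower and 0.799% higher, and the limits on unadjusted p and fold gave 3.46% lower and 4.02% higher. The median log2 fold change of the 26 was -0.09.

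Among the output genes of the PAR bZIP family and their antagonist Nfil3, 2 of 4 were lower by the limits on unadjusted p and fold, against 3.46% of all genes. Of the 6 genes called by these limits, Hlf, Nampt and Rorb kept the call under all 14 alternatives. Hlf and Rorb had few reads, 6 to 88 and 22 to 100 per library. Hlf (chromosome 11, 90336536 to 90390895), an activator at D-boxes, had 67.7, 67.0 and 106 normalized counts in Mock cells, against 19.3, 22.8 and 6.93 after the knockdown, log2FC -2.34 ± 0.49 SE (adjusted p = 0.1395 by limma). The groups did not overlap, and with single libraries left out the limma adjusted p was between 0.113 and 0.395. Nfil3 (chromosome 13, 52967209 to 52981073), the D-box repressor, showed log2FC -0.76 ± 0.32 SE (adjusted p = 0.382 by limma), and the groups overlapped, since replicate 3 after the knockdown lay at 897.5 normalized counts. Its call was lost under 6 of 14 alternatives, among them the fits without Mock replicate 1 (-0.74), Mock replicate 3 (-0.64), HIF-1α-KD replicate 1 (-0.44) and HIF-1α-KD replicate 2 (-0.74). Dbp and Tef, the other D-box activators, showed log2FC -0.15 ± 0.53 SE and 0.73 ± 0.33 SE. With single libraries left out, Dbp was between -0.71 and 0.32, so its direction turned, and Tef was between 0.43 and 1.02.

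Nampt, which encodes the rate-limiting enzyme of NAD salvage and is under clock control (chromosome 12, 32819545 to 32853349), was lower in each HIF-1α-KD library. It had 11600, 7522 and 9430 normalized counts in Mock cells, against 4401, 5265 and 5833 after the knockdown, log2FC -0.87 ± 0.19 SE (adjusted p = 0.157 by limma). Among the activators, Rorb and Arntl2 were higher by the criterion of p and fold change. Rorb (chromosome 19, 18930605 to 19111196), a receptor that activates Arntl, averaged 42.2 ± 14.3 normalized counts in Mock (SD, n = 3) and 103 ± 21.8 after the knockdown (SD, n = 3), log2FC 1.30 ± 0.36 SE (adjusted p = 0.249 by limma). Arntl2 (chromosome 6, 146796055 to 146833529), the paralog of Arntl, showed log2FC 0.80 ± 0.32 SE (adjusted p = 0.37 by limma), and Mock replicate 3 overlapped the HIF-1α-KD range. It lost its call under 5 of 14 alternatives, including those without Mock replicate 1 (0.64), Mock replicate 2 (0.63), HIF-1α-KD replicate 1 (0.79) and HIF-1α-KD replicate 3 (0.64). The corepressor gene Ncor1 (chromosome 11, 62316426 to 62458541), through which REV-ERB receptors act, showed log2FC 0.60 ± 0.24 SE (adjusted p = 0.358 by limma) without overlap of the groups. Without HIF-1α-KD replicate 3, the library with the most leukocyte transcripts, the log2FC of Ncor1 was 0.39 and the call was lost, as it was without Mock replicate 1 (0.41), without Mock replicate 3 (0.63) and with TMM scaling. Of the 7 kinase and ubiquitin ligase genes tested, 0 passed the criterion, while Csnk1e, a kinase of PER proteins, showed log2FC 0.41 ± 0.16 SE (adjusted p = 0.345 by limma).

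**Figure D4:**
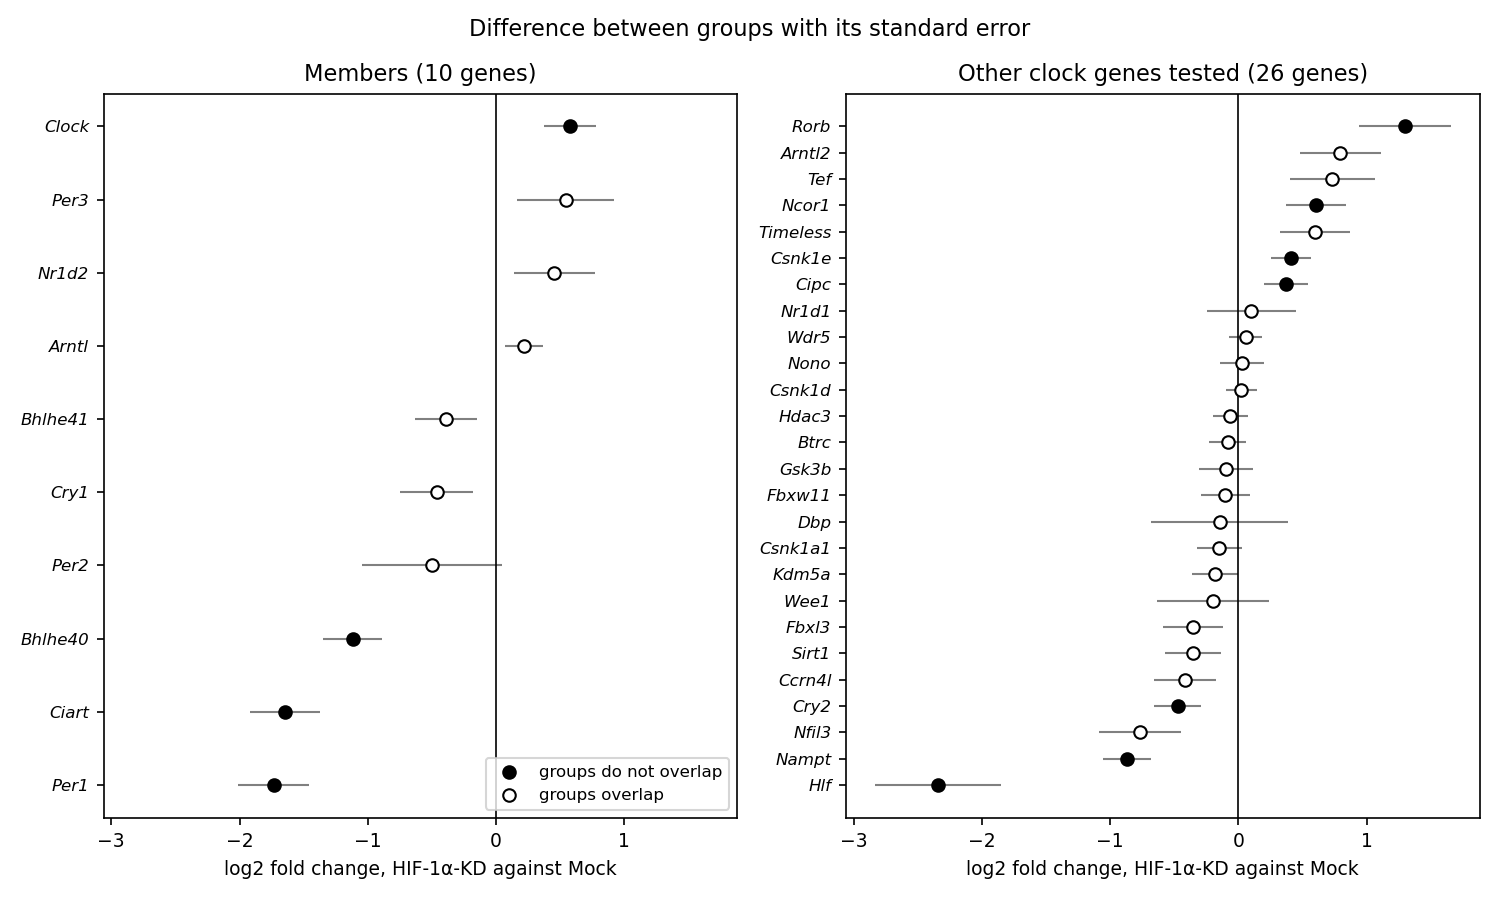
Log2 fold change of HIF-1α-KD against Mock cells (horizontal axis) with its standard error for the 10 members and for the 26 other clock genes tested; filled circles mark genes whose groups do not overlap. Per1, Ciart and Bhlhe40 lie at -1.73, -1.65 and -1.12 and Clock at 0.58, and among the other clock genes Hlf lies lowest at -2.34 and Rorb highest at 1.30.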

How the data were processed

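RNA of sorted MC-38 tumor cells was measured in 6 libraries, grouped by the condition in their titles. Per the study's methods, trimmed reads went through STAR, gene counts came from featureCounts, and DESeq2 was the authors' test. The submitters' processing notes also list edgeR. The methods name the human assembly GRCh38, the labels GRCm38, and the genes carry mouse Ensembl identifiers. The normalized counts deposited by the authors are a signal, each gene's count divided by 1 factor per library. The FPKM values deposited by the authors are scaled to gene width and library depth. The authors' own fold changes and p-values were not used. Multiplying back the factor gave whole reads (within 0.1) for 100% of 38665 values up to 300 reads. Depth sets the precision of a gene, and genes under about 50 reads, such as Per2, are the least certain.

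Genes were filtered with filterByExpr of edgeR 4.0.16 (minimum count of 10). Values were taken as log2(normalized count + 1) and fitted in limma 3.58.1 with a mean-variance trend, two-sided, with Benjamini-Hochberg adjustment over 12014 genes, and fold changes are on that scale. The replicate numbers were not taken as pairs. No source says that libraries come from separate animals, so p-values measure only the spread between these libraries. An exact permutation test of 3 against 3 cannot go below p = 0.1. Calls used an adjusted p under 0.05, or an unadjusted p under 0.05 with a fold change of at least 1.5. The fits were run on simulated data with known changes, where the share of false calls exceeded the limit set on adjusted p with each of limma, edgeR and DESeq2, most with DESeq2. Alternatives were edgeR, DESeq2 1.42.0, TMM and library-size scaling, pseudocounts of 0.1 and 10, no filter, a replicate block and leaving out each library. Named genes are the members, Hif1a, genes of the fixed lists past the second criterion, and the 3 genes most like Bhlhe40, Bhlhe41 and Per2. Cry2, Nr1d1, Dbp, Tef, Csnk1e, Arnt, Hes1 and Hey1 were named after their values were seen. The members and lists were chosen with earlier results of these data known. Gene positions are from GENCODE M21. R 4.3.3, Python 3.11.15, pandas 2.3.3, numpy 2.4.6 and matplotlib 3.10.9 were used.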

Additional observations from a re-analysis of the deposited data

How the results depend on the processing

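The direction of the log2 fold change was the same under all 14 alternatives for each of the 10 members and for Hif1a, and each of these 154 values moved by less than the SD between libraries. The 3 members lower by the limits of 0.05 on unadjusted p and 1.5 on the fold, Per1, Ciart and Bhlhe40, were so under each alternative, and Cry1 joined them without Mock replicate 3. The 0 members higher became 1 (Clock) with scaling by library size alone, and between 0 and 2 with single libraries left out. The 1 member at an adjusted p-value under 0.05 became 3 with DESeq2, 0 with scaling by library size alone, 0 with the replicate block and 0 without any single library. The 4 members without overlap of the groups were 4 with TMM scaling and 5 with scaling by library size alone. Scaling by library size alone shifted the median of all genes to 0.08 from 0.02.

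Of the other clock genes, DESeq2 called 2 lower at an adjusted p-value under 0.05, and 5 were higher by p and fold change with scaling by library size alone, where the number over all genes was 613 in place of 483. Among all genes, the 46 lower and 1 higher at an adjusted p-value under 0.05 were 187 and 96 with DESeq2, 0 and 0 with the replicate block, 0 higher with edgeR, and with single libraries left out 0 to 32 lower and 0 to 5 higher. The 483 genes higher by p and fold change were 242 to 675 with single libraries left out, the lowest without Mock replicate 1. The replicate numbers share only a number, since libraries of the same number had correlations of their deviations from the group means of -0.14, -0.12 and 0.02, and none of the libraries correlated best with its own number. Depth limits Per2 and Per3, which had 10 to 51 and 29 to 103 reads per library. It also limits Hlf and Rorb outside the members, with 6 to 88 and 22 to 100 reads.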

Other observations

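Families related to the clock genes were read from the same fit. Bhlhe40 and Bhlhe41 belong to the bHLH-Orange repressors, with the Hes and Hey genes, which act downstream of Notch. Of 10 Hes and Hey genes, 4 had enough reads to be tested, and 0 passed the limits of 0.05 on unadjusted p and 1.5 on the fold, against 3.46% of all genes lower and 4.02% higher. With limma 0 of the 4 had an unadjusted p-value under 0.05, against 12.7% of all genes. At an adjusted p-value under 0.05 edgeR called 0, against 0.391% of all genes lower, and DESeq2 called 0, against 1.56% lower and 0.799% higher. With 4 genes these counts cannot be told apart from the background. By the limits on unadjusted p and fold, 1 gene was higher with edgeR, 1 without the filter on low counts and 1 without HIF-1α-KD replicate 1. Hey1 had 8.62, 13.4 and 16.9 normalized counts in Mock cells, against 14.5, 44.4 and 37.0 after the knockdown, with overlap, and Hes1 showed log2FC 0.34 ± 0.29 SE. Hes1 was at 0.11 without HIF-1α-KD replicate 2 and at 0.60 without HIF-1α-KD replicate 1.

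Of 17 genes of the bHLH-PAS family outside the members, 10 were tested. Hif1a was lower (log2FC -1.82 ± 0.46 SE, adjusted p = 0.219 by limma), with values between -2.30, without HIF-1α-KD replicate 2, and -1.21, without HIF-1α-KD replicate 1. Arntl2 and Epas1, which encodes HIF-2α, were higher by p and fold change, 2 of 10 against 4.02% of all genes. An unadjusted p-value under 0.05 in limma was found for 5 of the 10, 1 lower and 4 higher, against 12.7% of all genes, and at an adjusted p-value under 0.05 limma, edgeR and DESeq2 each called 0. The number higher was 3 with scaling by library size alone, 1 with DESeq2, TMM scaling, a pseudocount of 0.1 or no filter, and 0 to 3 with single libraries left out, being 0 without HIF-1α-KD replicate 1 and without HIF-1α-KD replicate 3. Epas1 (chromosome 17, 86753700 to 86833410) had 25.9, 90.9 and 71.3 normalized counts in Mock cells, against 117, 129.5 and 97.0 after the knockdown, log2FC 1.03 ± 0.45 SE (adjusted p = 0.393 by limma). It lost the call under 10 of 14 alternatives. With single libraries left out, its log2 fold change was between 0.49, without Mock replicate 1, and 1.38, without Mock replicate 2, and edgeR called 0 of the family higher by the same limits. Arnt, the common partner of HIF-1α and HIF-2α, showed log2FC -0.02 ± 0.13 SE.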
